A study of Homo sapiens with 30 samples.

Results

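The aminoacyl-tRNA synthetases are the enzymes that join each amino acid to its tRNA before translation. Described here are 35 human genes of this family, out of 61578 in the count tables. They were chosen by name, with earlier results of these data known. By their names, 17 encode enzymes of the cytosol and 16 encode mitochondrial enzymes, while the other 2, GARS1 (glycine) and KARS1 (lysine), each encode both forms. All 35 were among the 19982 genes with enough reads to be tested. The read counts of VARS2, the mitochondrial valine enzyme, were only 3 to 24 per library, and those of SARS2, the mitochondrial serine enzyme, were 19 to 165.

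Both sets of synthetases are encoded in the nucleus and transcribed by RNA polymerase II. The mitochondrial enzymes are made in the cytosol, imported, and charge the tRNAs that mitochondrial ribosomes use to make respiratory chain subunits. In the cytosol, 7 of the enzymes listed here (EPRS1, IARS1, KARS1, LARS1, MARS1, QARS1 and RARS1) belong, with scaffold proteins such as AIMP1, AIMP2 and EEF1E1, to the multisynthetase complex. The phenylalanine enzyme of the cytosol is built from a catalytic subunit, FARSA, and a second subunit, FARSB. No separate mitochondrial glutamine enzyme is used: EARS2 loads glutamate on the glutamine tRNA and an amidotransferase of QRSL1, GATB and GATC converts it. Many cytosolic synthetase genes are textbook targets of ATF4, the transcription factor of the amino acid starvation response.

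Poly(A) RNA had been sequenced from 30 libraries labelled A549, a human lung adenocarcinoma line, in 15 groups of 2. The study asked how gene expression changes when the carboxy-terminal domain (CTD) of RPB1, the largest subunit of RNA polymerase II (gene POLR2A), is mutated. Mock cells are labelled wild type and were sequenced untreated only. All other lines carry the RPB1 degron, a tag through which dTAGV-1 leads to degradation of endogenous RPB1. The degron line carries no complement and was sequenced untreated and after 100 nM dTAGV-1 for 12 h. The lines WT, Y1F, S2A, T4V, S5A and S7A carry the degron and a complementing RPB1, either wild type or with the named residue of the CTD repeat replaced, induced by doxycycline. These 6 were sequenced untreated and after 2 µg/mL doxycycline for 24 h followed by 100 nM dTAGV-1 for 12 h. The treated WT and degron lines therefore differ by doxycycline as well as by the complement. Whether a line is 1 clone, and whether the 2 libraries of a group came from separate cultures, is not stated, so p-values measure only the spread between these libraries, which may be technical.

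Library totals were 10866089 to 17912802 counts. Defining genes of the labelled cell line were high in Mock and low in the other lines. The 13 lung and A549 genes summed to 35308 TPM (a level per transcript length, relative to the library total) at the highest, in Mock, and to 125 to 267 TPM in treated libraries. KRT7 and AKR1B10 had medians of 0 TPM over all libraries against 1593 and 9747 TPM at the highest. CDKN2A, known to be deleted in A549, had a median of 125 TPM and was at 0 in Mock. The lines are named by their labels only. Total POLR2A mRNA, which the counts cannot split into endogenous and complementing RPB1, did not fall in any line. The degron line had 461 and 292 CPM before and 405 and 662 CPM after treatment (CPM, a gene's counts relative to the scaled library total), a log2 fold change of 0.50, and the others had 0.53 (T4V) to 1.45 (S7A). The mRNA is no check of whether the protein was degraded. All values are relative to the other mRNAs of a library. Scaling instead by the 13 mRNAs made in mitochondria put the median log2 change of all genes at -0.17 (WT) to -0.70 (S5A), and scaling by the authors' factors put it at -0.19 (WT) to -0.92 (S5A), against -0.030 (S2A) to 0 here. Fewer cells and less RNA per cell cannot be told apart in these bulk libraries.

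Sequences at the start sites are shown for 2 short motifs, those known to be bound by ATF4 and by MYC, whose mRNAs changed with treatment. RefSeq start sites (GRCh38.p14) were found for 30 of the 35 genes, but not for AARS2, LARS1, VARS1, VARS2 and YARS1. Windows of 250 bases before to 50 after each were searched on both strands (some genes have 2 windows, and shares are of genes with a match in any). The ATF4 and C/EBP composite motif TGATGNAA was found for 8 of 30 genes (26.7%), against 4.46% of 27305 RefSeq genes with windows of the same length. By class it was found for 6 of 14 cytosolic genes, 1 of 2 bifunctional ones and 1 of 14 mitochondrial ones. The 8 stretches are shown 5′ to 3′ on the gene's own strand, with the motif, or its reverse complement, in capitals.
AARS1, chr16:70289675-70289704, minus strand: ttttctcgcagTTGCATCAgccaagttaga
CARS1, chr11:3057407-3057436, minus strand: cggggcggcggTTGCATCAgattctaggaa
IARS1, chr9:92293692-92293721, minus strand: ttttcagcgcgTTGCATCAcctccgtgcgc
MARS1, chr12:57488053-57488082, plus strand: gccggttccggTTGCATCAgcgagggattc
NARS1, chr18:57621804-57621833, minus strand: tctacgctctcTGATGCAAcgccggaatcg
TARS1, chr5:33440956-33440985, plus strand: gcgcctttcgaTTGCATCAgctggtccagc
GARS1, chr7:30594834-30594863, plus strand: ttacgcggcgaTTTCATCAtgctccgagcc
YARS2, chr12:32756076-32756105, minus strand: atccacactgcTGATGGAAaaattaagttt

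Among these 8, the cytosolic AARS1, CARS1, IARS1, MARS1 and TARS1 all hold the same 8 letters, TTGCATCA. The E-box CACGTG, the motif of MYC and MAX, was found for 4 of 30 genes, of which 1 of 14 cytosolic and 3 of 14 mitochondrial, against 8.77% of all genes. A match describes the letters only, and IARS1 holds both motifs.
MARS2, chr2:197705346-197705375, plus strand: atgcgcctctcaCACGTGctgtcagaacgc
CARS2, chr13:110706501-110706530, minus strand: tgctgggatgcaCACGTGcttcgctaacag
EARS2, chr16:23557348-23557377, minus strand: cagggagaagccCACGTGtgctattccatc
IARS1, chr9:92293866-92293895, minus strand: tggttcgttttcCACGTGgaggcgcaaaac

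Per transcript length, the cytosolic enzymes were the more abundant class in the 16 untreated libraries. Median levels of the gene means were 173 TPM for the 17 cytosolic genes, 163 for the 2 bifunctional ones and 40.3 for the 16 mitochondrial ones, against 9.28 over all tested genes. FARSA had the highest mean, at 508 ± 152 TPM (SD over the untreated libraries of all lines, n = 16). These SDs hold differences between lines and are not a spread of replicates. Summed cytosolic TPM were 2003 and 2015 in Mock against 3116 to 3604 in the other untreated libraries. The lowest untreated library of FARSA had 161 TPM, below the lowest of TARS1 (threonine) at 245 TPM. TARS1 followed with a mean of 322 ± 50.7 TPM. EPRS1, which carries both the glutamate and the proline enzyme, had 296 ± 67.8 TPM. The next levels lay within their spread of each other: KARS1 at 273 ± 29.1 TPM, SARS1 (serine) at 271 ± 62.5 TPM, IARS2 at 267 ± 37.8 TPM and RARS1 (arginine) at 258 ± 40.00 TPM. IARS2, the mitochondrial isoleucine enzyme, was thus the most abundant mitochondrial member, followed by TARS2 at 137 ± 38.5 TPM and AARS2 at 78.4 ± 24.8 TPM. The scarcest cytosolic members were CARS1 (cysteine) at 32.7 ± 7.02 TPM and HARS1 (histidine) at 39.6 ± 4.97 TPM. At the low end stood NARS2 (asparagine) at 11.4 ± 2.30 TPM, SARS2 at 10.9 ± 2.51 TPM, RARS2 (arginine) at 8.98 ± 1.18 TPM and VARS2 at 0.500 ± 0.260 TPM. The first 3 of these did not differ beyond their spread, and VARS2 lay below them in every untreated library.

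**Figure D1:**
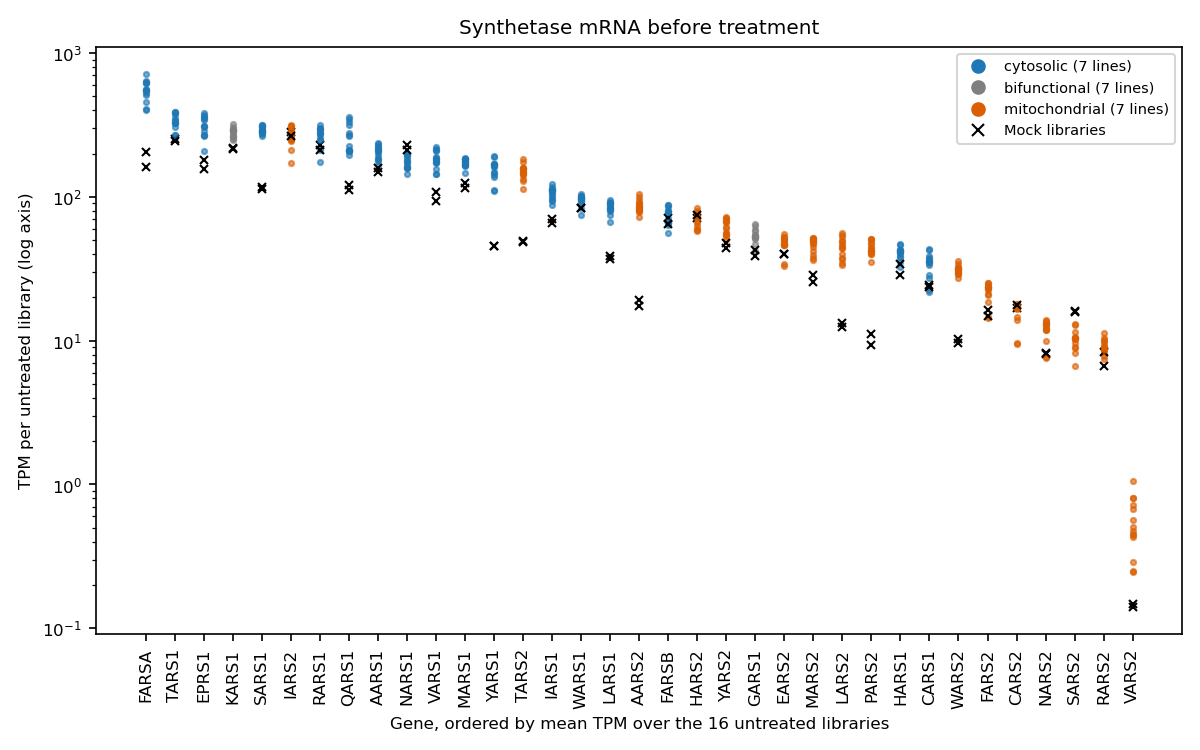
Level of each of the 35 genes in each untreated library, in TPM on a log axis, with genes ordered by their mean and Mock libraries drawn as crosses. Cytosolic genes fill most of the upper places, with the mitochondrial IARS2 and TARS2 among them, and VARS2 lies below the rest.

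Before treatment, the degron line and Mock differed in 23 of the 35 genes (background 64.8%), with 15 higher and 8 lower in the degron line (edgeR quasi-likelihood test, Benjamini-Hochberg adjusted p under 0.05), against 33.5% and 31.3% of all tested genes. PARS2 (proline) had 7.09 and 8.35 CPM in Mock and 29.8 and 26.9 in the degron line, and AARS2 (alanine) had 29.6 and 31.98 and 114 and 99.2, so both were higher in the degron line in both libraries. SARS2 went the other way, at 15.7 and 15.8 CPM in Mock and 7.98 and 7.62 in the degron line. The A549 genes above moved with this comparison, as did 6 genes known from kidney-derived HEK293 cells or neurons, whose sum over untreated libraries ran from 8.67 TPM in Mock to 844 TPM. One of them, IRS4, had 0.10 and 0.096 CPM in Mock and 1378 and 1481 in the degron line. The part of either list in the result was not tested. Against the untreated degron line, members higher and lower numbered 3 and 2 in WT (background 4.16% and 6.03%), 4 and 2 in Y1F (4.47% and 6.58%), 7 and 9 in S2A (16.4% and 18.8%), 3 and 5 in T4V (5.9% and 7.36%), 8 and 0 in S5A (6.31% and 6.66%) and 5 and 3 in S7A (8.39% and 10.3%). These 6 comparisons share the untreated degron libraries. The counts for WT, Y1F, S5A and S7A were smaller in every fit that left out 1 library, at 1 to 2, 0 to 3, 0 to 4 and 4 to 5 genes.

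After treatment, 3 to 10 of the 16 mitochondrial synthetase mRNAs fell in each line, with the fewest in WT, while the cytosolic ones went both ways. In the degron line 6 of 35 genes rose and 11 fell, against a background of 20.7% and 23.0% of all tested genes. With wild-type RPB1 as complement, 1 rose and 3 fell (2.86% and 2.24%). Among the mutants, 2 rose and 15 fell in Y1F (21.4% and 22.8%), and 3 rose and 11 fell in S2A (16.1% and 19.3%). In T4V, 3 rose and 10 fell (13% and 15.8%). S5A had the most falls of the 7 lines, with 1 gene up and 17 down (23.7% and 26.4%), and S7A had 3 up and 7 down (17.6% and 17.3%). Replicates lay closer in S5A (chi-square per degree of freedom 1.43 and 1.98) than in treated WT (25.9) or untreated T4V (27.7). Counts of calls are therefore not equally supported across lines. Over both directions the background was 43.8% in the degron line, 50.2% in S5A, 44.2% in Y1F, 35.4% in S2A, 34.9% in S7A, 28.8% in T4V and 5.09% in WT. The share that rose was about that of the background in WT (1 of 35 against 2.86%) and below it in the other lines. The share that fell lay above the background in all 7, but near it in S7A (7 of 35 against 17.3%). These shares were not tested against the background. Over the 7 lines, mitochondrial genes account for 51 of the 74 falls and 3 of the 19 rises, and cytosolic genes for 23 falls and 14 rises. When each library was left out in turn, 42 of the 51 mitochondrial falls and 9 of the 23 cytosolic falls passed in every fit. Both other scalings lower the change of all genes in a line, so only rises could turn: 11 of the 19 did under scaling by the 13 mitochondrial mRNAs and 17 under the authors' factors.

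**Figure D2:**
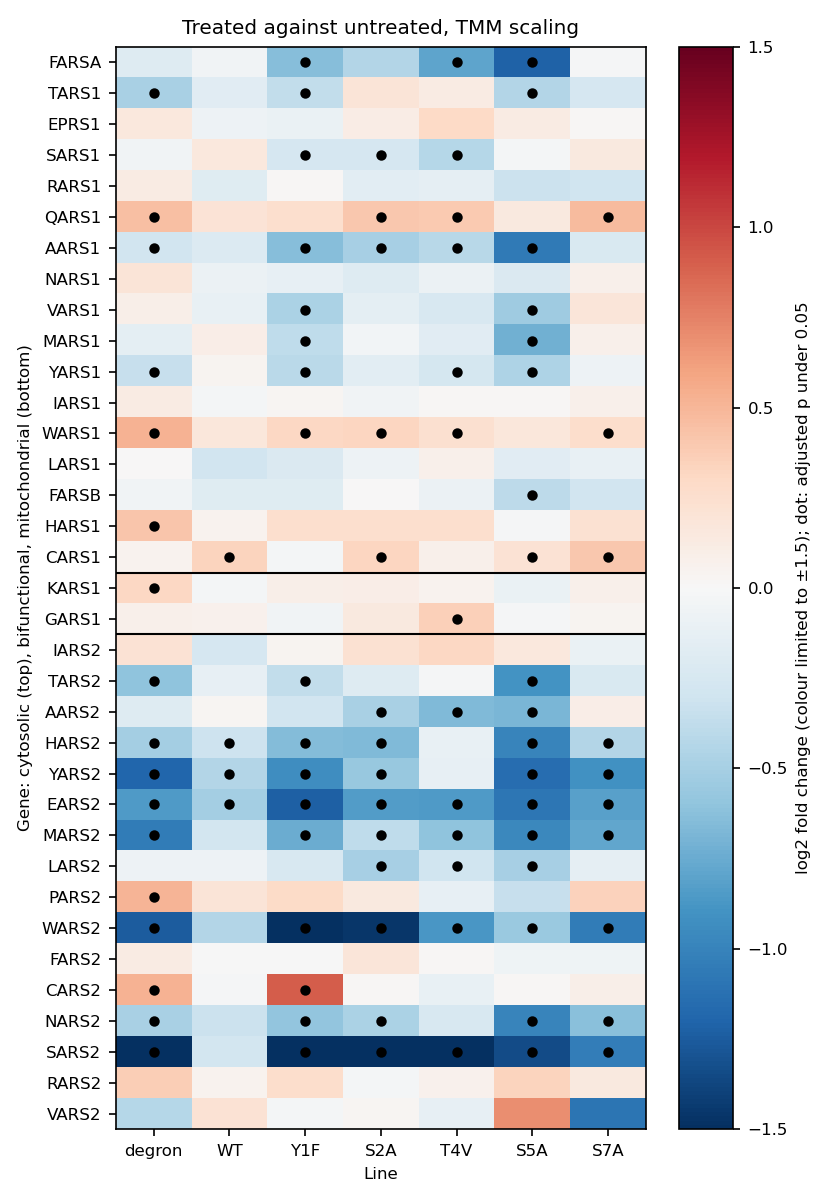
Log2 fold change of treated over untreated for the 35 genes (rows, by class) in the 7 lines (columns), with colours limited at 1.5 either way and dots where the adjusted p was under 0.05. The mitochondrial block holds most of the falls, with EARS2 dotted in every line and HARS2, MARS2, SARS2, WARS2 and YARS2 in 6, and the WT column is the palest.

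SARS2, which charges the mitochondrial serine tRNAs, had the deepest fall of the family in the degron line, Y1F, S2A, T4V and S5A. It lies on chromosome 19, 38915266 to 38930896, minus strand (GENCODE 29, GRCh38). The degron line had 7.98 and 7.62 CPM untreated and 2.17 and 2.78 CPM treated, a log2 fold change of -1.65 ± 0.20 (SE), adjusted p = 8.5e-07. Y1F had 9.81 and 7.82 CPM untreated and 2.31 and 1.55 CPM treated (-2.14 ± 0.21 (SE), adjusted p = 5.8e-08). The treated libraries of these lines lay far below the untreated ones, with no overlap. S2A had 6.18 and 5.01 CPM before and 1.90 and 1.89 CPM after, T4V had 8.03 and 6.69 CPM before and 2.57 and 2.60 CPM after, S5A had 7.17 and 8.05 CPM before and 2.99 and 3.00 CPM after and S7A had 9.05 and 9.58 CPM before and 3.89 and 5.18 CPM after. Their log2 fold changes were -1.56, -1.51, -1.34 and -1.04, all past the threshold and all called in every fit that left out 1 library. In WT the groups overlapped, at 6.81 and 7.77 CPM before and 5.00 and 6.92 CPM after, with -0.28 ± 0.18 (SE), adjusted p = 0.44. SARS2 shares its start region with MRPS12, a gene of the mitochondrial ribosome on the opposite strand, and with no stated strand setting, reads of the overlap cannot be assigned with certainty. MRPS12 itself had -0.39 in the degron line (adjusted p = 0.16) and -0.46 in S7A (adjusted p = 0.10), and fell in Y1F (-0.90), S2A (-0.59), T4V (-0.84) and S5A (-1.41), which are 4 of the 6 lines where SARS2 fell.

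WARS2, YARS2 and MARS2, the mitochondrial enzymes for tryptophan, tyrosine and methionine, each fell in 6 lines. WARS2 (chromosome 1, 119031216 to 119140671, minus strand) had 29.8 and 32.6 CPM untreated and 14.3 and 11.9 CPM treated in the degron line (-1.25 ± 0.14 (SE), adjusted p = 2.3e-07). In Y1F it had 28.9 and 29.3 CPM before and 10.2 and 9.57 CPM after (-1.55) and in S2A 29.4 and 29.6 CPM before and 10.03 and 11.4 CPM after (-1.46), so its groups were apart in all 3 lines. T4V, S5A and S7A had smaller falls, of -0.87, -0.56 and -1.04. In WT it had 26.9 and 29.1 CPM before and 20.3 and 21.02 CPM after, a change of -0.44 that did not pass (adjusted p = 0.064) although the libraries did not overlap. YARS2 (chromosome 12, 32727490 to 32755902, minus strand) had 26.6 and 27.2 CPM untreated and 11.7 and 11.9 CPM treated in the degron line (-1.19 ± 0.12 (SE), adjusted p = 7.3e-08) and 32.2 and 28.3 CPM before and 14.5 and 12.9 CPM after in S5A (-1.14). It fell in every line but T4V, where it had 29.8 and 31.9 CPM before and 27.9 and 28.6 CPM after (-0.13, adjusted p = 0.44). YARS2 overlaps DNM1L, a coding gene at 115 to 180 CPM that was called in no line. The part of DNM1L reads in the YARS2 counts was not tested. The WT fall of YARS2, -0.43, was lost without treated library 2 or untreated library 1 (-0.27, adjusted p = 0.39 at the highest). MARS2 (chromosome 2, 197705369 to 197708387, plus strand) holds the E-box shown above. It had 28.3 and 26.5 CPM untreated and 13.5 and 12.9 CPM treated in the degron line (-1.05 ± 0.11 (SE), adjusted p = 1.8e-07) and 30.7 and 29.2 CPM before and 14.5 and 16.1 CPM after in S5A (-0.97). Its smallest fall, -0.38 in S2A, was lost without treated library 1 or untreated library 1 or 2 (-0.31, adjusted p = 0.11 at the highest).

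**Figure D3:**
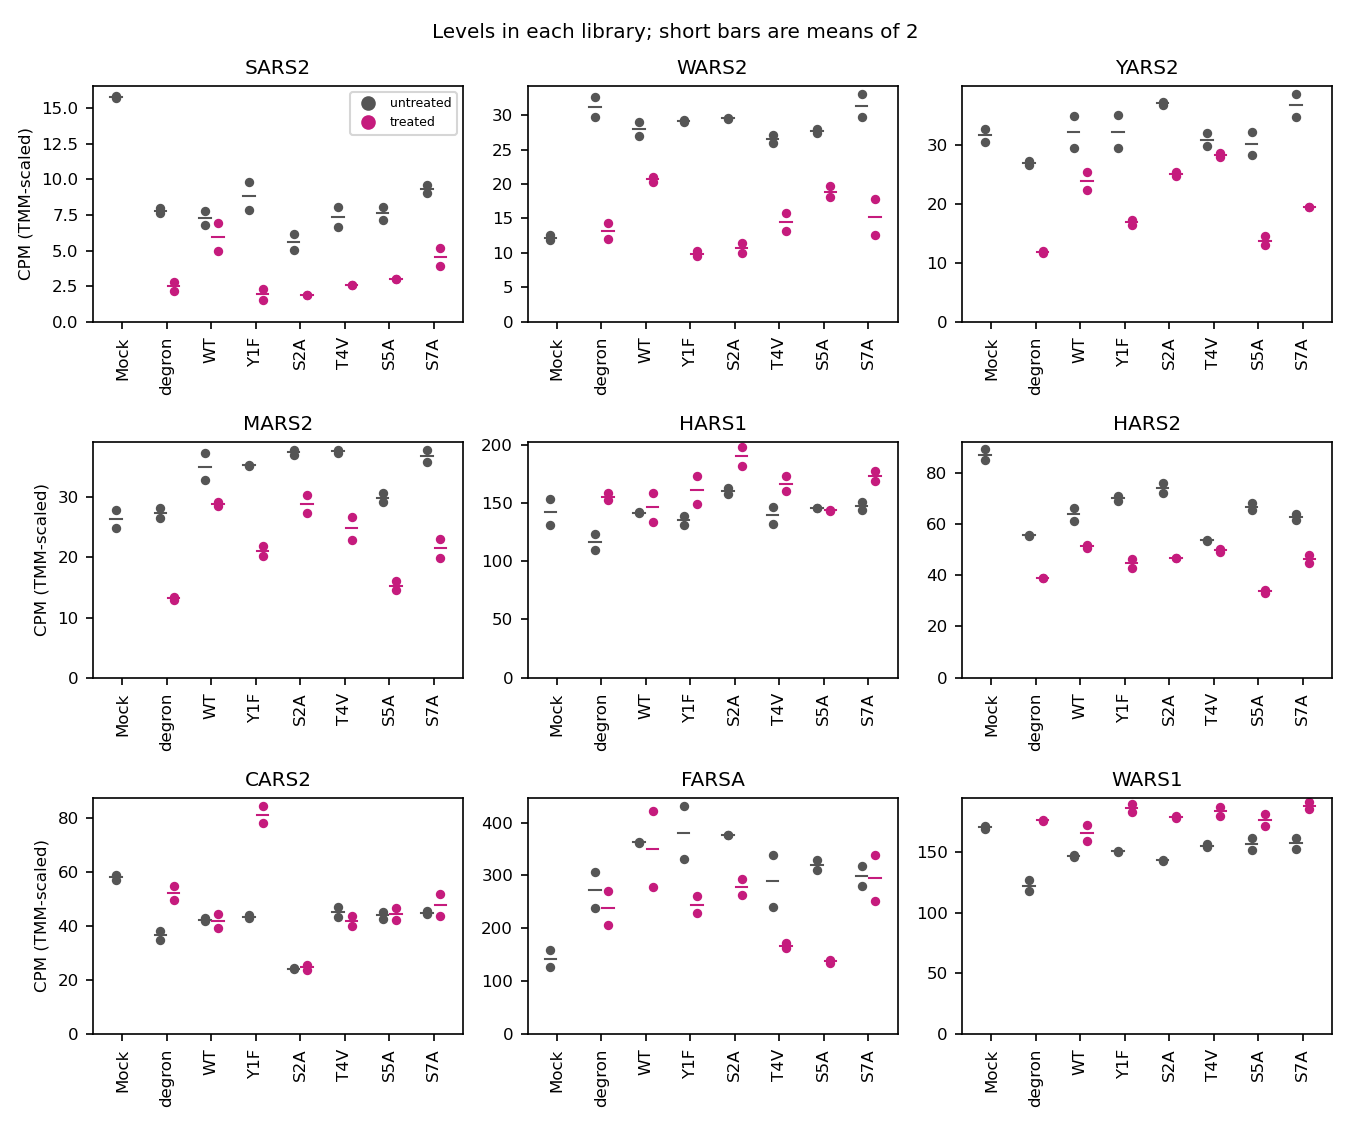
CPM of 9 genes in each library, with untreated libraries in grey, treated ones in magenta and bars at the means, on linear axes that start at 0. SARS2, WARS2 and MARS2 drop least in WT and YARS2 least in T4V, CARS2 goes up in the degron and Y1F lines, and HARS1 and WARS1 go up in the degron line.

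EARS2, the glutamate enzyme of mitochondria that also serves the glutamine tRNA, was the only member called in all 7 lines. It lies on chromosome 16, 23522014 to 23557731, minus strand. In the degron line it had 80.5 and 83.3 CPM untreated and 43.6 and 47.4 CPM treated (-0.85 ± 0.096 (SE), adjusted p = 3.9e-07), and in WT 82.5 and 77.9 CPM before and 55.3 and 57.5 CPM after (-0.51 ± 0.096 (SE), adjusted p = 0.0028). Treated libraries were below both untreated ones in each line, with the deepest fall in Y1F (-1.23) and S5A (-1.09) and falls of -0.84, -0.85 and -0.82 in S2A, T4V and S7A. The WT fall was lost in 1 fit, without untreated library 1 (-0.43, adjusted p = 0.098). UBFD1, an overlapping coding gene, rose in the 6 lines other than WT, by 0.52 (S7A) to 0.69 (S5A), the opposite direction to EARS2, though under the authors' factors it turned below 0 in the degron line, Y1F, S5A and S7A. The partner of EARS2 in the glutamine route, the amidotransferase subunit QRSL1, fell in the same 6 lines, with changes of -0.41 (Y1F) to -0.82 (S5A), with -0.24 in WT (adjusted p = 0.41). The other subunits did not fall in any line. GATC rose in the degron line (0.33), which turned below 0 under both other scalings, and GATB was not called in any line.

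HARS1 and HARS2, the cytosolic and mitochondrial histidine enzymes, are neighbours on chromosome 5 in opposite directions, with RefSeq start sites 85 bases apart at 140691370 and 140691455 (GRCh38.p14). They went apart in the degron line. HARS2 had 55.4 and 55.6 CPM untreated and 38.9 and 38.96 CPM treated (-0.51 ± 0.085 (SE), adjusted p = 4.6e-05), while HARS1 had 123 and 109.6 CPM untreated and 152 and 159 CPM treated (0.42 ± 0.10 (SE), adjusted p = 0.0025). That rise of HARS1 turned to -0.017 under scaling by the 13 mitochondrial mRNAs and to -0.39 under the authors' factors. HARS2 also fell in Y1F (-0.65), S2A (-0.66), S5A (-0.98), S7A (-0.44) and WT (-0.32), where the call was lost without any 1 of its 4 libraries (-0.22, adjusted p = 0.37 at the highest). T4V was its exception, at 53.9 and 53.3 CPM before and 50.3 and 49.1 CPM after (-0.11, adjusted p = 0.36). HARS1 was not called outside the degron line, with -0.020 (S5A) to 0.26 (T4V) and 0.047 in WT. Their annotated spans overlap, so reads of the shared stretch are uncertain for both.

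The other mitochondrial falls were of smaller size or in fewer lines. NARS2 (asparagine) fell in 5 lines, deepest in S5A, where it had 53.01 and 48.7 CPM untreated and 25.2 and 26.2 CPM treated (-0.98), and its fall in S2A (-0.47) was lost without treated library 1 (-0.41, adjusted p = 0.051). TARS2 (threonine) had 153 and 155 CPM before and 82.5 and 83.9 CPM after in S5A (-0.89) and also fell in the degron line (-0.60) and in Y1F (-0.36), the last being lost without treated library 1 or untreated library 1 (-0.21, adjusted p = 0.30 at the highest). AARS2 (alanine) fell in S2A (-0.49), T4V (-0.67) and S5A (-0.68). Of these the S5A fall passed in every fit that left out 1 library, while the others were lost, without treated library 2 or untreated library 1 or 2 (-0.39, adjusted p = 0.16 at the highest) in S2A and without untreated library 1 (-0.38, adjusted p = 0.15) in T4V. LARS2 (leucine) fell in S2A and S5A (-0.50 and -0.50) and in T4V (-0.30), where the call was lost without treated library 1 or 2 or untreated library 1 (-0.13, adjusted p = 0.51 at the highest). FARS2, IARS2, RARS2 and VARS2 were called in no line, with IARS2 between -0.25 (WT) and 0.31 (T4V). VARS2 ranged from -1.09 to 0.70 without a call, at 3 to 24 counts per library. What size of change could be detected at this depth was not tested.

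CARS2 and PARS2 were the mitochondrial members that rose. CARS2, the mitochondrial cysteine enzyme, had 43.9 and 42.7 CPM untreated and 77.9 and 84.2 CPM treated in Y1F (0.90 ± 0.10 (SE), adjusted p = 6.4e-07) and 38.1 and 34.7 CPM before and 49.6 and 54.8 CPM after in the degron line (0.52 ± 0.11 (SE), adjusted p = 4.0e-04). Both treated libraries lay above both untreated ones in these lines, and in the others it changed by -0.11 (T4V) to 0.089 (S7A) with no call. The Y1F rise kept its direction under both other scalings (0.59 and 0.070), but the degron rise turned to -0.29 under the authors' factors. CARS2 (chromosome 13, 110641412 to 110713603, minus strand) overlaps ING1, which rose by 1.59 in Y1F and by 0.94 in S2A and had 0.24 in the degron line (adjusted p = 0.18). Its part in the CARS2 counts was not tested. PARS2 (proline) had 29.8 and 26.9 CPM before and 37.6 and 42.9 CPM after in the degron line (0.50). This call was lost without treated library 2 or untreated library 2 (0.41, adjusted p = 0.10 at the highest), and turned to -0.31 under the authors' factors.

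The cytosolic rises were of 4 genes: WARS1 (tryptophan) in 5 lines, CARS1 (cysteine) and QARS1 (glutamine) in 4 each, and HARS1 as above. WARS1 (chromosome 14, 100333788 to 100376805, minus strand) had 118 and 127 CPM untreated and 176 and 176 CPM treated in the degron line (0.53 ± 0.077 (SE), adjusted p = 1.0e-05). It also rose in Y1F (0.31), S2A (0.32), T4V (0.24) and S7A (0.26), but under scaling by the 13 mitochondrial mRNAs these 4 turned to -0.0068, -0.15, -0.31 and -0.12, and under the authors' factors all 5 lay below 0. QARS1 (chromosome 3, 49095932 to 49105135, minus strand) had 418 and 373 CPM before and 499 and 581 CPM after in the degron line (0.45), and rose by 0.40 in S2A, 0.40 in T4V and 0.47 in S7A. Its rises in S2A and T4V turned to -0.070 and -0.16 under scaling by the 13 mitochondrial mRNAs, and all 4 turned under the authors' factors. CARS1 rose in S7A, at 68.9 and 68.00 CPM before and 89.3 and 91.8 CPM after (0.40), in S2A (0.32), in S5A (0.21) and in WT, at 93.7 and 86.3 CPM before and 108 and 119 CPM after (0.34 ± 0.084 (SE), adjusted p = 0.021). Those in S2A and S5A turned to -0.15 and -0.48 under scaling by the 13 mitochondrial mRNAs, those in S2A, S5A and S7A turned under the authors' factors, and the WT rise turned under neither. Leaving out 1 library ended several of these calls. For WARS1 they were lost without treated library 1 or 2 or untreated library 2 (0.21, adjusted p = 0.14 at the highest) in T4V and without treated library 2 or untreated library 2 (0.24, adjusted p = 0.065 at the highest) in S7A. For QARS1 they were lost without treated library 2 or untreated library 2 (0.34, adjusted p = 0.094 at the highest) in the degron line, without treated library 1 or untreated library 1 or 2 (0.34, adjusted p = 0.13 at the highest) in S2A, without treated library 1 or 2 or untreated library 2 (0.25, adjusted p = 0.24 at the highest) in T4V and without treated library 2 or untreated library 1 (0.27, adjusted p = 0.18 at the highest) in S7A. For CARS1 they were lost without treated library 2 or untreated library 2 (0.31, adjusted p = 0.18 at the highest) in WT, without treated library 1 (0.29, adjusted p = 0.051) in S2A and without treated library 1 or untreated library 1 or 2 (0.14, adjusted p = 0.28 at the highest) in S5A.

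AARS1, the cytosolic alanine enzyme, was the cytosolic gene that fell in the most lines. It lies on chromosome 16, 70252295 to 70289543, minus strand and holds the ATF4 motif shown above. In S5A it had 529 and 557 CPM untreated and 261 and 262 CPM treated (-1.06 ± 0.10 (SE), adjusted p = 2.9e-08), and it also fell in Y1F (-0.64), S2A (-0.50), T4V (-0.42) and the degron line (-0.29). In WT it had 538 and 523 CPM before and 417 and 505 CPM after (-0.20, adjusted p = 0.27) and in S7A -0.23 (adjusted p = 0.083). The falls in the degron line and T4V were lost without treated library 1 or untreated library 1 or 2 (-0.20, adjusted p = 0.26 at the highest) in the degron line and without untreated library 1 (-0.22, adjusted p = 0.21) in T4V.

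FARSA (chromosome 19, 12922479 to 12934037, minus strand) was the member with the highest mean TPM before treatment. In S5A it had 310.1 and 329.7 CPM untreated and 140.4 and 135 CPM treated (-1.22 ± 0.20 (SE), adjusted p = 3.1e-05). Both treated libraries lay far below the untreated ones. It also fell in T4V (-0.79) and Y1F (-0.64), but these calls were lost without untreated library 1 (-0.45, adjusted p = 0.17) and without treated library 1 or untreated library 1 (-0.39, adjusted p = 0.23 at the highest). FARSB, the other subunit of the same enzyme, fell in S5A alone (-0.39), which was lost without any 1 of its 4 libraries (-0.25, adjusted p = 0.29 at the highest). YARS1 (tyrosine) fell in 4 lines, with changes of -0.27 (T4V) to -0.46 (S5A), and its T4V fall was lost without treated library 2 or untreated library 1 (-0.19, adjusted p = 0.13 at the highest). SARS1 (serine) fell in T4V, at 266 and 257 CPM before and 193 and 195 CPM after (-0.43), and by less in Y1F (-0.26) and S2A (-0.25), the latter calls being lost without treated library 1 or untreated library 1 or 2 (-0.16, adjusted p = 0.25 at the highest) and without any 1 of its 4 libraries (-0.20, adjusted p = 0.15 at the highest). MARS1 (methionine) fell in S5A, at 311 and 315 CPM before and 188 and 192 CPM after (-0.72), and in Y1F (-0.38), lost without treated library 1 or untreated library 1 (-0.24, adjusted p = 0.22 at the highest). VARS1 (valine) fell in Y1F and S5A (-0.47 and -0.53) and TARS1 in the degron line, Y1F and S5A (-0.48, -0.37 and -0.44). None of these 5 calls of VARS1 and TARS1 passed in every fit that left out 1 library. The VARS1 calls were lost without any 1 of its 4 libraries (-0.28, adjusted p = 0.39 at the highest) in Y1F and without any 1 of its 4 libraries (-0.48, adjusted p = 0.12 at the highest) in S5A. The TARS1 calls were lost without treated library 2 or untreated library 2 (-0.32, adjusted p = 0.066 at the highest) in the degron line, without treated library 1 or 2 or untreated library 2 (-0.23, adjusted p = 0.19 at the highest) in Y1F and without treated library 2 (-0.39, adjusted p = 0.052) in S5A.

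EPRS1, IARS1, LARS1, NARS1 and RARS1 were called in no line, and 4 of these 5 belong to the multisynthetase complex. Of the 7 complex members, 2 were called in the degron line, the rises of QARS1 and KARS1 (background 43.8% over both directions), and at most 1 in each other line. Among the scaffold proteins, AIMP2 fell in all 7 lines, with 36.9 and 40.2 CPM before and 17.1 and 17.3 CPM after in the degron line (-1.16), -0.52 in WT and -1.70 in S5A. EEF1E1 fell in S5A (-1.04) and AIMP1 was called in no line. The bifunctional genes moved little. KARS1 had 260.3 and 257 CPM before and 331 and 312 CPM after in the degron line (0.31 ± 0.074 (SE), adjusted p = 0.0017), which turned to -0.12 under scaling by the 13 mitochondrial mRNAs and to -0.49 under the authors' factors. GARS1 had 203 and 243 CPM before and 291 and 284 CPM after in T4V (0.36), turning to -0.18 and -0.062 and lost without treated library 1 or 2 or untreated library 1 (0.35, adjusted p = 0.081 at the highest).

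Set side by side, the mitochondrial class had the lower median change in every line. In the degron line the median log2 fold change was 0.050 over the 17 cytosolic genes and -0.46 over the 16 mitochondrial ones, with 3 cytosolic genes up and 3 down against 2 and 8. WT had medians of -0.051 and -0.19, Y1F had -0.19 and -0.33, and S2A had -0.053 and -0.42. They were -0.082 and -0.12 in T4V, -0.22 and -0.62 in S5A and 0.076 and -0.34 in S7A. Over all tested genes the median lay between -0.030 (S2A) and 0. The gap between the classes was thus widest in the degron line, S7A, S5A and S2A, and narrow in T4V, Y1F and WT. The Y1F gap of 0.14 changed sign when 1 library was left out (-0.045 to 0.37), the T4V gap ran from 0.015 to 0.25, and the WT gap of 0.14 from 0.12 to 0.26. Fallen genes were 1 of 17 cytosolic and 7 of 16 mitochondrial when counted as called in at least 5 lines. The share of all tested genes that fell in as many lines was not counted. Medians over genes describe these lists and were not tested.

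Summed over genes, the cytosolic TPM exceeded the mitochondrial TPM by a ratio of 3.51 and 3.42 untreated and 3.87 and 4.09 treated in the degron line. In WT the ratio was 3.64 and 3.82 untreated and 4.05 and 4.25 treated, and in S7A 3.60 and 3.56 untreated and 4.32 and 4.38 treated. In these lines, and in S2A (3.47 and 3.46 untreated and 3.77 and 3.66 treated) and S5A (3.56 and 3.73 untreated and 3.81 and 3.79 treated), every treated library lay above every untreated one. Libraries overlapped in Y1F (3.77 and 3.68 untreated and 3.72 and 3.81 treated) and T4V (3.93 and 3.96 untreated and 4.02 and 3.94 treated), and Mock had 3.19 and 3.24. Each ratio lies within a library, so no scaling between libraries enters it. Under scaling by the 13 mitochondrial mRNAs, the class medians of the degron line were -0.38 and -0.89, with 0 genes up and 23 of 35 down, and in S5A 33 of 35 fell. Under the authors' factors 34 of 35 fell in each of S5A and S7A, 33 in Y1F and 28 in the degron line. In S2A 23 fell, in T4V 19 and in WT 1, with 0 rises in any line. The median over all tested genes was then -0.92 in S5A, -0.81 in S7A, -0.82 in Y1F and -0.79 in the degron line. Under scaling by the 13 mitochondrial mRNAs it was -0.42 in the degron line and -0.70 in S5A. Shares of all tested genes that fell under these scalings were not counted, so these counts have no background beside them. The number of cytosolic rises thus depended on the scaling, and since a scaling shifts all genes of a line alike, it is no test of the gap between the classes.

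**Figure D4:**
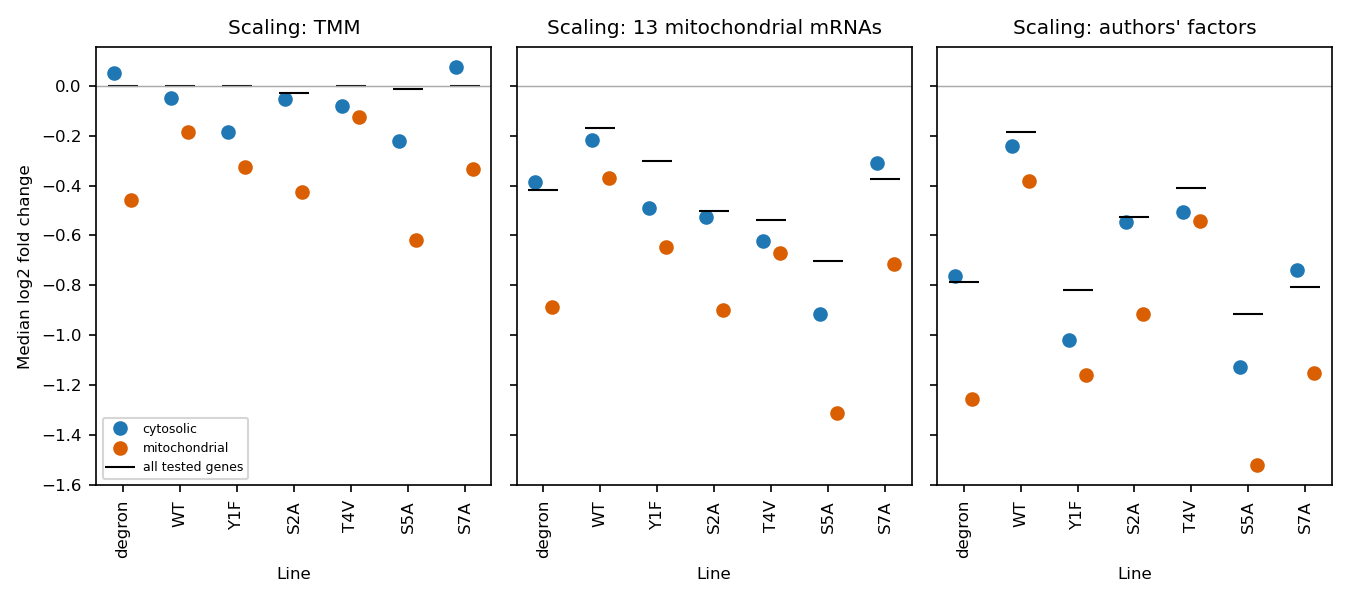
Median log2 fold change of the cytosolic genes, the mitochondrial genes and all tested genes in each line, under TMM scaling, scaling by the 13 mitochondrial mRNAs and the authors' factors. All 3 medians shift down together under the other scalings, which by their construction leave the gap between the classes about the same.

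Whether wild-type RPB1 lessened the changes seen without a complement was tested as the difference between the changes of the WT and degron lines. In 8 of 35 genes it passed (background 11.7%), 5 with a higher and 3 with a lower change in WT, against 8.52% and 3.2% of all tested genes. The higher ones were genes that fell in the degron line: SARS2 (1.37 ± 0.27 (SE), adjusted p = 0.0016), WARS2 (0.81), MARS2 (0.77), YARS2 (0.75) and the cytosolic YARS1 (0.39). CARS2 (-0.54), WARS1 (-0.35) and KARS1 (-0.34) rose in the degron line and changed less in WT, but under the authors' factors these differences turned to 0.091, 0.27 and 0.27. The 4 mitochondrial enzymes SARS2, WARS2, MARS2 and YARS2 passed in every fit that left out 1 library. Lost were YARS1 without WT treated library 2, WT untreated library 2 or degron untreated library 1 (0.31, adjusted p = 0.078 at the highest), CARS2 without WT treated library 1, WT untreated library 1 or 2, degron treated library 2 or degron untreated library 2 (-0.48, adjusted p = 0.089 at the highest), WARS1 without WT treated library 1, WT untreated library 1 or 2, degron treated library 1 or 2 or degron untreated library 1 (-0.32, adjusted p = 0.12 at the highest) and KARS1 without WT untreated library 1 or 2, degron treated library 1 or degron untreated library 2 (-0.30, adjusted p = 0.12 at the highest). Doxycycline was given to WT only, so its effect and that of the complement cannot be told apart.

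Each mutant was then set against WT, so that doxycycline and dTAGV-1 are the same on both sides. These 5 comparisons share the 4 WT libraries, of which the treated pair differed by 25.9 times the counting noise (chi-square per degree of freedom). S5A differed in the most genes, 12 of 35 (background 18.2%), all with a lower change than WT (5.86% higher and 12.3% lower over all tested genes). Of them 8 are mitochondrial: SARS2 (-1.06 ± 0.27 (SE), adjusted p = 0.0095), TARS2 (-0.77), YARS2 (-0.71), AARS2 (-0.70), MARS2 (-0.69), HARS2 (-0.67), NARS2 (-0.66) and EARS2 (-0.58). The cytosolic ones are FARSA (-1.17 ± 0.28 (SE), adjusted p = 0.0053), AARS1 (-0.85 ± 0.14 (SE), adjusted p = 2.5e-04), MARS1 (-0.81) and YARS1 (-0.51). Lost when 1 library was left out were AARS2 without S5A treated library 1 or 2, S5A untreated library 1 or 2, WT treated library 2 or WT untreated library 1 or 2 (-0.50, adjusted p = 0.21 at the highest), FARSA without WT treated library 2 (-0.81, adjusted p = 0.069) and SARS2 without S5A untreated library 2, WT treated library 2 or WT untreated library 1 (-0.77, adjusted p = 0.11 at the highest). The other 9 passed in every such fit.

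Y1F differed from WT in 6 genes (background 10.1%, of which 3.21% higher and 6.85% lower). Its change was lower for SARS2 (-1.86 ± 0.28 (SE), adjusted p = 2.3e-04), WARS2 (-1.11 ± 0.19 (SE), adjusted p = 8.3e-04), EARS2 (-0.72), YARS1 (-0.45) and SARS1 (-0.42), and higher for CARS2 (0.92 ± 0.15 (SE), adjusted p = 4.4e-04). IARS2 was called with a higher change than WT in S2A, T4V and S5A by DESeq2 (0.52, 0.57 and 0.49) and by edgeR without WT treated library 1 (0.57, 0.67 and 0.53, adjusted p = 0.042, 0.023 and 0.032), but not by edgeR on all libraries. SARS1 was lost without WT treated library 2, WT untreated library 1 or 2, Y1F treated library 1 or Y1F untreated library 1 or 2 (-0.31, adjusted p = 0.14 at the highest). S2A differed in 3 genes (background 7.34%, of which 2.85% higher and 4.49% lower), all with a lower change: WARS2 (-1.03 ± 0.19 (SE), adjusted p = 0.0025), SARS2 (-1.28) and SARS1 (-0.41). WARS2 passed in every fit that left out 1 library, but the other 2 calls were lost, SARS2 without S2A untreated library 1, WT treated library 2 or WT untreated library 1 (-1.02, adjusted p = 0.077 at the highest) and SARS1 without S2A treated library 1 or 2, S2A untreated library 1 or 2, WT treated library 2 or WT untreated library 1 or 2 (-0.32, adjusted p = 0.13 at the highest). T4V differed in 2 genes (background 3.8%, of which 1.12% higher and 2.69% lower), both with a lower change, SARS1 (-0.59 ± 0.11 (SE), adjusted p = 0.0052), which passed in every fit, and SARS2 (-1.23), lost without T4V treated library 1 or 2, T4V untreated library 1, WT treated library 2 or WT untreated library 1 or 2 (-0.96, adjusted p = 0.16 at the highest). S7A differed from WT in 0 genes with edgeR and in 0 with DESeq2, against 0.691% of all tested genes (0.35% higher and 0.34% lower). At an unadjusted p under 0.05 there were 5 in S7A, all with a lower change than WT, and the smallest adjusted p was 0.13. SARS2 thus had a lower change than WT in 4 of the 5 mutants, and in S7A its difference was -0.76 ± 0.26 (SE), adjusted p = 0.18. SARS1, its cytosolic counterpart, was lower in Y1F, S2A and T4V, while in S5A and S7A it had -0.19 and -0.0085 (adjusted p = 0.25 and 1.000).

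**Figure D5:**
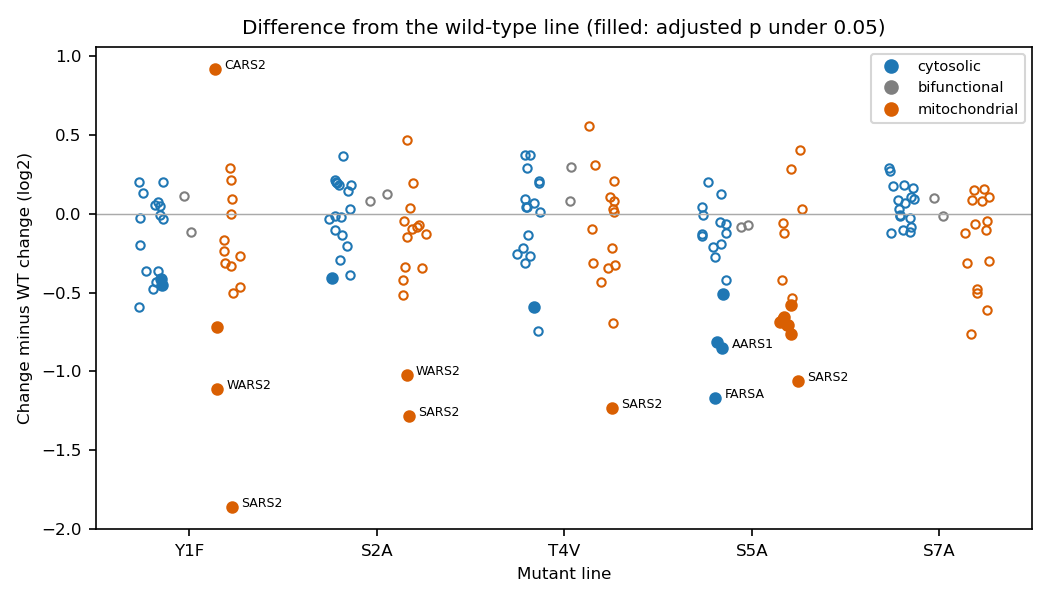
Change in each mutant minus the change in WT, on the log2 scale, for the 35 genes except VARS2, with filled points where the adjusted p was under 0.05. VARS2, the member with the lowest counts, is not drawn and was not called in these comparisons. Filled points lie below 0 except CARS2 in Y1F, S5A has the most of them and S7A has none.

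Among other genes of mitochondrial protein synthesis, 5 of 9 translation factors fell in S7A (background 17.3%). In S5A (26.4%), Y1F (22.8%) and the degron line (23.0%) 4 each fell. In T4V (15.8%) and S2A (19.3%) 3 each fell, and in WT 2 (2.24%). Per line 0 to 2 of these factors rose, against 2.86% (WT) to 23.7% (S5A) of all tested genes. Of the 85 rises in this and the following lists, 26 turned under scaling by the 13 mitochondrial mRNAs and 38 under the authors' factors (overlapping genes included), both of which lower all genes. MRRF, the ribosome recycling factor, fell in all 7 lines, with -0.41 in WT and -0.94 in S5A. MTRF1, a release factor, had 13.5 and 14.03 CPM before and 6.71 and 4.84 CPM after in S2A (-1.25), and MTIF2 and MTIF3, which start translation, had -0.44 and -0.83 in the degron line. GFM2, which acts in ribosome recycling, rose in Y1F, T4V and S5A (0.42, 0.48 and 0.56), each rise turning under 1 or both of the other scalings, and TUFM, the elongation factor that carries charged tRNA, was called in no line. MTFMT, which formylates the starter methionine on its tRNA, rose in the degron line (0.62), T4V, S5A and S7A, all of which turned under the authors' factors. In the cytosol, 1 of 5 tested elongation factors rose in the degron line (background 20.7%), 2 in S2A (16.1%) and 1 in T4V (13%). In each line 0 fell, against 2.24% (WT) to 26.4% (S5A) of all tested genes. EEF1A1, which carries charged tRNA to the ribosome, rose by 0.31 in S2A, which turned under both other scalings. ELAC1, a tRNA processing nuclease, rose in 6 lines (in S5A it turned under both other scalings), with 1.14 in the degron line and 0.49 in WT (adjusted p = 0.11). In the selenocysteine pathway, PSTK, the kinase that prepares the selenocysteine tRNA, fell in 5 lines, with -1.18 in the degron line and -1.05 in Y1F. SECISBP2, which binds the selenocysteine insertion element, fell in Y1F, T4V and WT (-0.49, -0.30 and -0.33). EEFSEC, the selenocysteine elongation factor, rose in the degron line and Y1F (0.58 and 0.49) and SEPSECS, which makes the charged tRNA, in Y1F (0.70), and all 3 rises turned under the authors' factors.

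The mRNAs of the regulators named with the promoter motifs fell with treatment. ATF4 had 669 and 628 CPM untreated and 92.8 and 105 CPM treated in the degron line (-2.71, adjusted p = 1.3e-14) and 598 and 588 CPM before and 439 and 519.7 CPM after in WT (-0.31, adjusted p = 0.059). It fell in Y1F, S2A, T4V, S5A and S7A by 1.80, 0.91, 1.15, 2.46 and 0.91 on the log2 scale. Of 28 genes of the amino acid response, 15 fell and 0 rose in the degron line (background 23.0% and 20.7%), 14 fell and 2 rose in S5A (26.4% and 23.7%), 11 fell and 3 rose in Y1F (22.8% and 21.4%), and 0 fell and 5 rose in WT (2.24% and 2.86%). In S2A 6 fell and 2 rose (19.3% and 16.1%), in T4V 4 and 3 (15.8% and 13%), and in S7A 4 and 6 (17.3% and 17.6%), so the share that fell lay near the background in these 3 lines. SLC7A1, an arginine and lysine transporter, fell in the 6 lines other than WT, with -1.32 in the degron line. SLC38A2, a transporter of small neutral amino acids, fell in the degron line, Y1F, S5A and S7A, with -1.97 and -1.47 in the degron line and S5A. SESN2, a sensor of leucine, rose in the 6 lines with a complement, with 0.61 in WT and 0.89 in S7A, and its rises in S2A, S5A, T4V and Y1F turned under at least 1 other scaling. ASNS, which makes asparagine, was called in T4V and S7A only, both rises (0.88 and 0.97). Of the 4 kinases that stop translation on stress, EIF2AK2, which senses double-stranded RNA, fell in S2A and S5A (-0.93 and -0.62), and EIF2AK4, which senses uncharged tRNA, fell in the same lines (-0.38 and -0.34). EIF2AK3, which senses unfolded protein in the endoplasmic reticulum, rose in Y1F, S2A and T4V (0.66, 0.70 and 0.49), turning under the authors' factors in Y1F and under scaling by the 13 mitochondrial mRNAs in T4V. EIF2AK1, which senses heme, rose in the degron line, Y1F and S5A (0.31, 0.29 and 0.23), all turning under both other scalings.

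MYC had 542 and 503 CPM untreated and 20.5 and 24.5 CPM treated in the degron line (-4.54), and fell in every other line, with -3.76 in Y1F, -4.24 in S5A and -0.50 in WT. MAX, its partner, fell in 5 lines, with -0.59 in S7A and -0.49 in the degron line, and MXD1, which competes for MAX, rose in the 6 lines other than WT, with 1.44 and 1.97 in the degron line and S5A. Among the cytosolic and bifunctional genes with a start site, the 7 with the ATF4 motif had a median change of 0.050 in the degron line, with 0 up and 2 down. The 9 without it had 0.16, with 4 up and 0 down (background 20.7% and 23.0%). LARS1, VARS1 and YARS1 had no start site and are in neither set, although YARS1 fell in the degron line and YARS1 and VARS1 fell in S5A. In S5A the medians were -0.22 and -0.033, with 1 up and 3 down against 0 up and 2 down (background 23.7% and 26.4%). In Y1F they were -0.12 and 0.019. They were -0.042 and 0.096 in S2A, 0.013 and 0.048 in T4V, 0.076 and 0.072 in S7A and -0.030 in both sets in WT, so the gap was small in T4V, S7A and WT. Of the 3 mitochondrial genes with the E-box, EARS2 and MARS2 fell and CARS2 rose in the degron line. Binding and protein levels were not measured.

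In the authors' deposited tables, which compare treated with untreated libraries within a line, 0 of the 35 genes were higher in any line at an adjusted p under 0.05. The number lower in the authors' deposited tables was 34 for S5A, 33 for Y1F, 31 for S7A, 28 for the degron line, 26 for S2A, 17 for T4V and 0 for WT. The authors' deposited tables gave a median log2 fold change over the 35 of -1.25 for S5A, -1.05 for Y1F, -0.87 for S7A, -0.86 for the degron line, -0.57 for S2A, -0.53 for T4V and -0.25 for WT. In edgeR fits with the authors' factors, the median over all tested genes was -0.92 in S5A, -0.82 in Y1F and -0.81 in S7A. It was -0.79 in the degron line, -0.53 in S2A, -0.41 in T4V and -0.19 in WT. The share of all genes lower was not counted, so the numbers lower have no background beside them.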

How the data were processed

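Poly(A) RNA libraries were made with a VAHTS Universal V6 kit from TRIzol RNA and read from both ends, per the labels' protocols. The deposited values are whole read counts per gene and TPM, which the authors produced on hg38 and dm6. The submitters' processing notes name featureCounts 2.0.1, STAR 2.7.3a and Trim Galore 0.6.2 as tools. Which annotation release and strand setting were used no source used here gives. Fly cells are stated as spike-in, but 0 fly genes are listed. TPM summed to 998366 to 999347 per library. The authors' deposited tables give a base mean (a signal: mean scaled count), log2 fold changes and raw and adjusted p-values, with DESeq2 1.24.0 named in the submitters' processing notes; size factors per library were solved from the base means.

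The test was the quasi-likelihood test of edgeR 4.0.16 (robust, TMM factors; R 4.3.3), with 1 coefficient per group over all 30 libraries (15 residual degrees of freedom, common dispersion 0.0121). The filter on low counts (filterByExpr, minimum count 10, minimum total 15) left 19982 genes and removed 41596. Benjamini-Hochberg adjustment ran over all tested genes within each of 20 comparisons. CPM are counts relative to the TMM-scaled library total, and differences in change are interaction contrasts. Alternatives were DESeq2 1.42.0, scaling by 13 mitochondrial mRNAs or by the authors' factors, other filters, fits with a replicate block or on the own libraries of a line, and each library left out in turn. The fits were tested on simulated data.

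Members and gene lists were chosen with earlier results of these data known. Named with values in each library are, per line, up to 5 risen and 5 fallen members with the largest fold change whose groups do not overlap, and single members where a group is described. Other genes named are POLR2A, MYC, ATF4 and up to 4 called genes per list; further list genes and overlapping genes were named after their values were seen. Coordinates are from GENCODE 29 and sequences from RefSeq (GRCh38.p14). Depth differences and the few libraries per group limit precision: replicates differed by 1.29 to 27.7 times the counting noise (chi-square per degree of freedom). The largest values were of untreated T4V (27.7), treated WT (25.9), treated S7A (19.9) and the treated degron line (19.4). Each gene had 1 estimate of spread over all groups, so the p-values take no account of this unevenness.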

Additional observations from a re-analysis of the deposited data

Results flagged for a closer look

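The change on treatment differed between lines, by a test of the difference itself (edgeR, adjusted p under 0.05), in 31 cases. WT minus degron differences on the log2 scale were YARS1 (0.39), WARS2 (0.81), MARS2 (0.77), YARS2 (0.75), CARS2 (-0.54), WARS1 (-0.35), KARS1 (-0.34) and SARS2 (1.37). For Y1F minus WT they were YARS1 (-0.45), SARS1 (-0.42), WARS2 (-1.11), CARS2 (0.92), EARS2 (-0.72) and SARS2 (-1.86). S2A minus WT differed in SARS1 (-0.41), WARS2 (-1.03) and SARS2 (-1.28), and T4V minus WT in SARS1 (-0.59) and SARS2 (-1.23). S5A minus WT differed in YARS1 (-0.51), TARS2 (-0.77), MARS2 (-0.69), HARS2 (-0.67), AARS2 (-0.70), NARS2 (-0.66), YARS2 (-0.71), MARS1 (-0.81), EARS2 (-0.58), AARS1 (-0.85), FARSA (-1.17) and SARS2 (-1.06). All comparisons of a mutant with WT share the WT libraries, so these differences are not independent of each other. SARS2, at 19 to 165 counts per library, is in 5 of the sets.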

How the results depend on the processing

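Counts of called members moved most with the scaling. Under the authors' factors they were 34 in S7A (10 under TMM), 34 in S5A (18), 33 in Y1F (17), 28 in the degron line (17), 23 in S2A (14) and 1 in WT (4), and for the differences 16 in WT minus degron (8), 19 in Y1F minus WT (6), 30 in S5A minus WT (12) and 11 in S7A minus WT (0). Under scaling by the 13 mitochondrial mRNAs they were 33 in S5A, 29 in T4V (13), 27 in S2A, 26 in Y1F, 23 in S7A and 10 in WT, 6 in S2A minus WT (3), 9 in T4V minus WT (2), 27 in S5A minus WT and 1 in S7A minus WT, and untreated against the degron line 2 in Y1F (6), 21 in S5A (8) and 13 in S7A (8). With no filter on low counts they were 1 in WT, 4 in WT minus degron, 5 in T4V minus WT, and untreated 3 in WT (5), 4 in S5A and 2 in S7A. With a mean of at least 5 CPM there were 4 in T4V minus WT, and the cytosolic minus mitochondrial median was 0.20 in WT (0.14), 0.42 in S2A (0.37) and 0.31 in S7A (0.41). DESeq2 gave 4 in T4V minus WT. In fits of a line's own 4 libraries there were 28 in S5A, 22 in S2A, 5 in T4V, 5 in S7A and 0 in WT. Shares of all tested genes called were counted for the main fit only, so counts under the other settings have no background beside them. The cause of these moves was not tested.

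Rises that reversed under scaling by the 13 mitochondrial mRNAs were HARS1 (-0.017) and KARS1 (-0.12) in the degron line, WARS1 in Y1F (-0.0068), S2A (-0.15), T4V (-0.31) and S7A (-0.12), QARS1 in S2A (-0.070) and T4V (-0.16), CARS1 in S2A (-0.15) and S5A (-0.48) and GARS1 in T4V (-0.18). Under the authors' factors they were WARS1 (-0.29), CARS2 (-0.29), PARS2 (-0.31), QARS1 (-0.36), HARS1 (-0.39) and KARS1 (-0.49) in the degron line, WARS1 in Y1F (-0.53), QARS1 (-0.10), WARS1 (-0.17) and CARS1 (-0.17) in S2A, QARS1 (-0.014), GARS1 (-0.062) and WARS1 (-0.18) in T4V, CARS1 in S5A (-0.69), and QARS1 (-0.35), CARS1 (-0.41) and WARS1 (-0.55) in S7A.

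With 1 library left out in turn, called members numbered 15 to 16 in S5A, 14 to 16 in the degron line, 12 to 15 in Y1F, 9 to 13 in S7A, 9 to 12 in S2A, 8 to 13 in T4V and 1 to 3 in WT. Differences numbered 4 to 9 in WT minus degron, 5 to 10 in Y1F minus WT, 1 to 5 in S2A minus WT, 1 to 6 in T4V minus WT, 9 to 15 in S5A minus WT and 0 to 1 in S7A minus WT. Untreated differences numbered 19 to 20 in degron minus Mock, and against the degron line 11 to 16 in S2A, 3 to 9 in T4V, 4 to 5 in S7A, 0 to 4 in S5A, 0 to 3 in Y1F and 1 to 2 in WT. The cytosolic minus mitochondrial median was 0.45 to 0.53 in the degron line, 0.36 to 0.45 in S7A, 0.31 to 0.47 in S5A, 0.33 to 0.38 in S2A, 0.12 to 0.26 in WT, 0.015 to 0.25 in T4V and -0.045 to 0.37 in Y1F. Same-numbered libraries deviated together in S7A (correlation 0.44) but not in the other lines (-0.54 in the degron line to 0.063 in S2A). The numbers are therefore not taken as a pairing. With the replicate number as a block, called members were 1 in WT, 4 in WT minus degron and 1 in T4V minus WT.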
